A study of Mus musculus with 8 samples.

Results

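The probes described here carry no gene name. Each is named by an interval of the mouse build mm9, as chromosome, start and end with the suffix F or R, and such intervals are candidates for long non-coding RNAs. The members are the non-control probes named in this way on the autosomes other than chromosomes 12 and 16, and they were chosen by name alone. They number 14198 of the 55681 non-control probes, and 14198 of the 16181 probes with an interval name. They cover 3097 intervals, and an interval with 1 suffix is called an interval strand here: there are 4048, of which 2027 carry F and 2021 carry R. F and R are read as the strands of the genome. An interval strand has 1 to 10 probes (median 3). The intervals are 62 to 7128487 bp long with a median of 7476 bp. The longest is chr7:39351858-46480344, with 1 probe.

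Long non-coding RNAs are transcripts without a long open reading frame, and many lie between protein-coding genes. Many are present at low levels and in particular tissues, the brain among them, and some are transcribed opposite another transcript of the same locus. An array probe is complementary to 1 strand, so that both strands of an interval can be measured apart.

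Hippocampal RNA of 3-month-old C57BL6/J mice was measured on 8 one-colour arrays, 4 per genotype, and the series describes 4 pairs of littermates. Wild-type mice have 2 copies of every autosome. Ts1Cje, a mouse model of Down syndrome, has an extra copy of distal chromosome 16 from Sod1 to Zbtb21, in which 1 copy of Sod1 is disrupted, and lacks the distal end of 1 chromosome 12 through the same translocation. The members therefore lie outside the chromosomes whose dosage differs. Slide row 1 carried replicates 1 and 2 of each genotype, and row 2 carried replicates 3 and 4. No slide column carried both genotypes, so effects of column and genotype cannot be told apart. The markers of hippocampal neurons, interneurons, astrocytes, oligodendrocytes and microglia that were examined were detected on all 8 arrays. So were those of endothelium, choroid plexus, ependyma, striatum and neocortex, and Hba-a1, a haemoglobin gene, while Alas2, an enzyme gene of red blood cell precursors, was detected on none.

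Fewer members than gene probes were detected. A probe was called detected on an array when the scanner software flagged it as well above background. On all 8 arrays 5105 members (36.0%) were detected, 6279 (44.2%) were detected on none, and 2814 (19.8%) on some. Of the 26536 RefSeq mRNA probes 72.6% were detected on all 8 arrays, and of the 1216 RefSeq non-coding probes 45.7%. Interval probes on the excluded chromosomes had shares of 36.5% on chromosome 12, 40.2% on chromosome 16 and 38.8% on X. The shares were not tested against each other, because probes of 1 interval share a target.

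**Figure D1:**
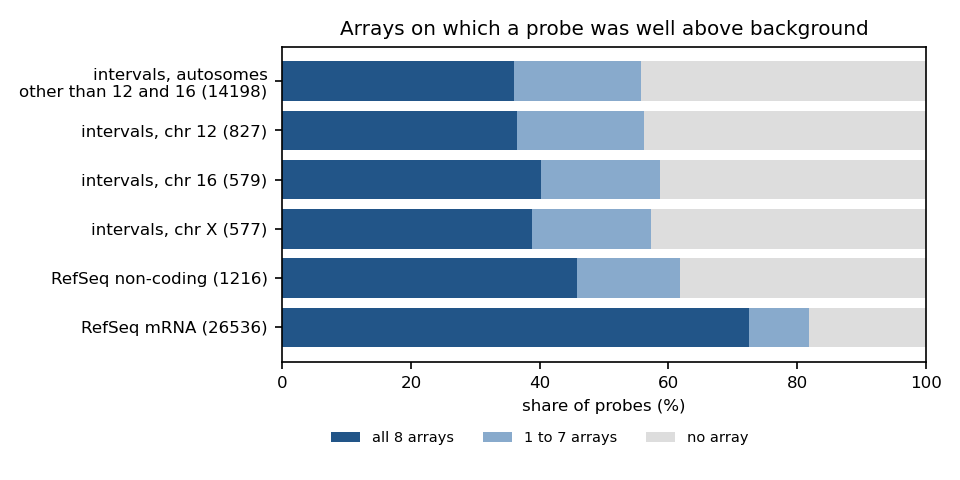
Share of probes (%, horizontal axis) well above background on all 8 arrays, on 1 to 7 arrays or on no array, for the intervals described here, the intervals of chromosomes 12, 16 and X, and 2 classes of RefSeq probes, with the number of probes in brackets. The dark part of the bar ends at 36.0% for the intervals and at 72.6% for RefSeq mRNA probes.

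The count was alike on the single arrays. Wild-type replicates 1 to 4 had 41.6%, 42.2%, 42.8% and 41.7% of the members detected, and Ts1Cje replicates 1 to 4 had 45.3%, 41.4%, 43.2% and 44.7%. The groups overlapped, with Ts1Cje replicate 1 highest and Ts1Cje replicate 2 lowest. By chromosome, the share detected on all 8 arrays ran from 26.1% of 736 probes on chromosome 9 to 46.0% of 322 on chromosome 19, with 28.6% on chromosome 10 and 42.2% on chromosome 5. Interval length showed no steady order: with interval strands cut into 4 equal groups from the shortest to the longest, the shares were 34.1%, 38.2%, 35.2% and 35.8%.

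Probes of 1 interval strand often differed in detection. Of 4048 interval strands, 2397 (59.2%) had at least 1 probe detected on all 8 arrays, and 750 had no probe detected on any array. Among the 3428 interval strands with more than 1 probe, all probes were detected on all 8 arrays in 585 (17.1%), some in 1563 (45.6%) and none in 1280 (37.3%). An interval strand is thus often represented by a part of its probes.

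The detected members were dim. Their processed signal, the scanner's background-corrected brightness averaged over the 8 arrays, had a median of 106, with 5% of probes below 31.8 and 5% above 2615, and reached from 21.0 to 173419. Levels below are log2 of that signal minus the array's 75th percentile over all non-control probes, so that 0 is the brightness that 75% of probes stay under. The median level was -2.46 for the members, -1.47 for the RefSeq non-coding probes and 0.36 for the RefSeq mRNA probes. Above 0 lay 789 of the 5105 members (15.5%), against 54.5% of the mRNA and 32.9% of the non-coding probes. Brightness depends on how well a probe binds, so that these are descriptions of probes and not amounts of RNA.

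**Figure D2:**
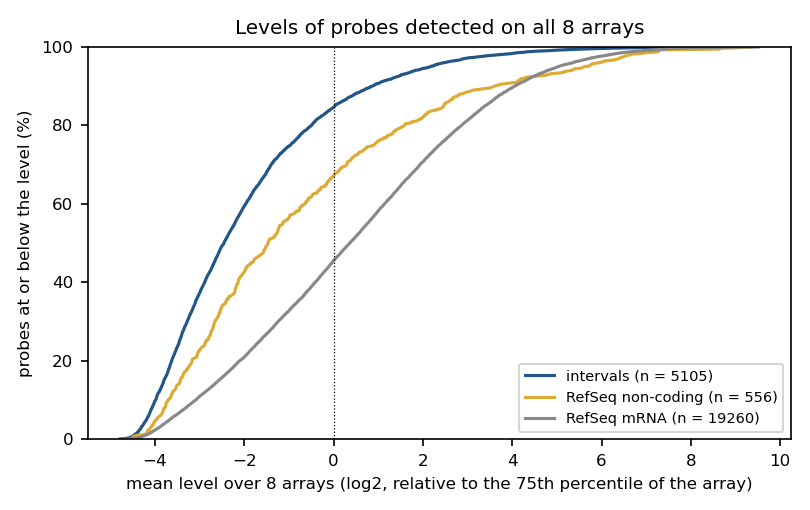
Cumulative share of probes (%, vertical axis) against the mean level over 8 arrays (log2, relative to the array's 75th percentile), for probes detected on all 8 arrays. The interval curve lies to the left of both RefSeq curves, with a median of -2.46, and the dotted line marks 0.

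The spread between replicates followed the brightness. The median SD within a group was 0.18 on the log2 scale for the members, 0.14 for the RefSeq non-coding and 0.10 for the mRNA probes. For members below a level of -4 it was 0.25, between -4 and -2 it was 0.21, between -2 and 0 it was 0.14, and above 0 it was 0.10. The mRNA probes of the same bins had 0.24, 0.19, 0.13 and 0.08.

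The 8 brightest interval strands had mean levels of 6.89 to 8.24 per genotype, and none of them passed the test for a genotype difference. The brightest was chr19:5801802-5802597 R, whose levels were 8.25, 8.41, 8.02 and 8.28 in wild type and 8.04, 8.35, 8.23 and 8.20 in Ts1Cje. The groups overlapped across nearly their whole range, with a log2 fold change of -0.03 (SE 0.10), and all 3 of its probes were detected. The others were chr14:78924115-78938125 F, chr6:83368261-83407280 F, chr6:116092274-116144199 F, chr17:39982023-39983277 F, chr14:77006215-77063293 R, chr2:156213798-156216885 R and chr17:17481706-17482457 R. Their log2 fold changes lay between -0.10 and 0.05 with SE of 0.05 to 0.06. Of the 8, the arrays of both genotypes failed to overlap only for chr6:83368261-83407280 F, with 7.55 to 7.65 in wild type and 7.46 to 7.55 in Ts1Cje, where the nearest arrays differed only past the second decimal. The genes at these positions are not given, since no gene annotation of mm9 was used here.

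Both strands were represented for 951 intervals, and 2146 intervals had probes for 1 strand only (1076 for F and 1070 for R). Of the 951, 435 (45.7%) had a probe detected on all 8 arrays on both strands, 380 (40.0%) on 1 strand and 136 (14.3%) on neither. Neither suffix dominated in this count: 184 of the 380 were F and 196 were R. By probe, 32.2% of the F and 37.9% of the R probes of the 951 intervals were detected on all 8 arrays. The strands had equal numbers of probes in 531 of these intervals. In 143 intervals 1 strand was detected on all 8 arrays while no probe of the other strand was detected on any array. Of the intervals with 1 strand represented, 1147 (53.4%) were detected.

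The 4 brightest intervals with both strands detected were chr18:36449530-36456800, chr5:35975265-35982561, chr7:108209996-108216032 and chr6:83368261-83407280. For the first, all 8 probes of F and all 10 of R were detected on all 8 arrays. Its F strand had 5.21, 5.17, 5.25 and 5.26 in wild type and 5.26, 5.14, 5.23 and 5.26 in Ts1Cje, and its R strand 5.43, 5.34, 5.37 and 5.33 against 5.51, 5.35, 5.50 and 5.37. The genotypes overlapped on both strands. On chr5:35975265-35982561 the F strand stood at 5.68 ± 0.06 in wild type and 5.51 ± 0.13 in Ts1Cje (SD, n = 4 each), with a log2 fold change of -0.18 (SE 0.07, limma adjusted p = 0.56), and the R strand at -0.02 (SE 0.10). On chr7:108209996-108216032 the R strand had 6.90, 6.82, 6.90 and 6.87 in wild type and 6.80, 6.64, 6.73 and 6.74 in Ts1Cje, so that the arrays did not overlap. That difference of -0.14 (SE 0.05) did not pass either (limma adjusted p = 0.49), and the F strand stood at -0.03 (SE 0.11).

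At the other end were intervals with a bright strand and another with no probe detected on any array, which does not show that it is silent. The 4 with the brightest detected strand opposite a strand on no array were chr1:193875525-193978800 R, chr3:127170996-127201096 F, chr17:22815742-22828592 R and chr7:50509139-50526856 R. Of the probes on these bright strands, 2 of 2, 3 of 5, 1 of 4 and 3 of 5 were detected on all 8 arrays, in that order. The first had 5.56, 5.49, 5.43 and 5.48 in wild type and 5.47, 5.52, 5.47 and 5.59 in Ts1Cje, which overlapped. Wild-type replicate 2 was low on the next 2, with 3.79 against 4.25 to 4.40 on the other arrays for chr3:127170996-127201096 F, and 3.08 against 3.84 to 4.05 for chr17:22815742-22828592 R. The log2 fold changes of the 4 were 0.02, 0.14, 0.18 and -0.06, with SE of 0.05, 0.13, 0.20 and 0.10, and none passed.

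The strands of 1 interval did not move with genotype in a common direction. For the 435 intervals with both strands detected on all 8 arrays, each strand is represented by its brightest probe, and the genotype difference had the same sign on both strands in 225 (51.7%). Pearson's r between the differences of F and R was 0.01 across intervals, which are not independent replicates. With a filter that asked for all 4 arrays of at least 1 genotype, 255 of 476 intervals had the same sign (53.6%, Wilson 95% interval 49.1% to 58.0%, which covers counting error only). Deviations of single arrays from their group mean correlated over the 8 arrays with a median r of 0.20 between strands of an interval, and 0.15 between interval strands of different intervals.

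Probes of the same interval strand shared more. The first 2 detected probes by name of 1286 interval strands had the same sign in 833 (64.8%), with r = 0.26 between their differences and a median r of 0.47 between their deviations. The first probes by name of the 435 intervals gave 232 of the same sign (53.3%), r = 0.04 and a median r of 0.18 across strands. All these points come from the same 8 arrays, so that an array's own shift enters every one of them. Even within a strand the sign was often mixed. Of 772 interval strands with at least 3 detected probes, all probes lay higher in Ts1Cje in 239, all lower in 93, and 440 were mixed.

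**Figure D3:**
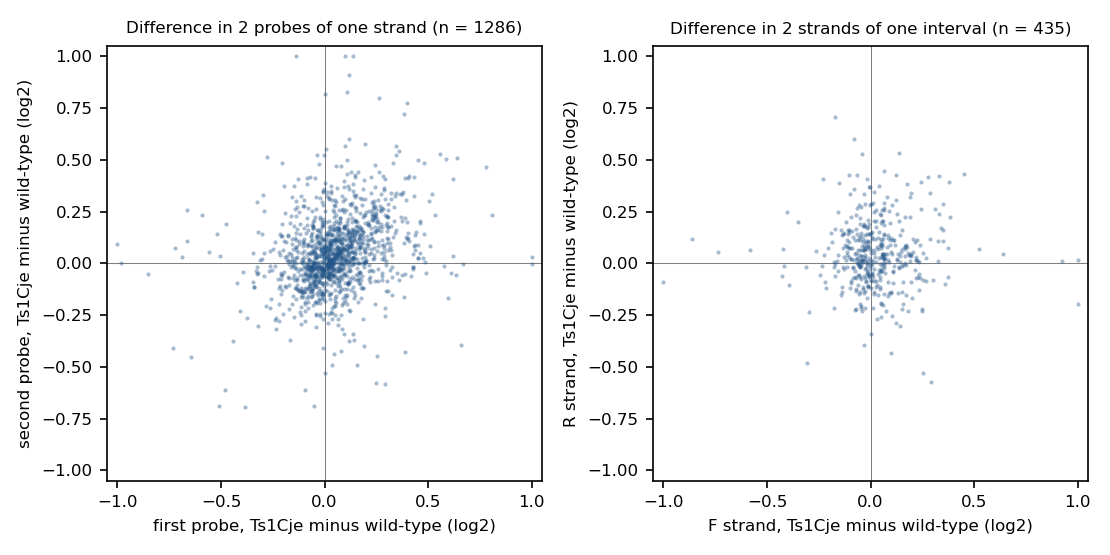
Genotype differences (Ts1Cje minus wild-type, log2) of the first 2 detected probes of 1286 interval strands (left) and of the F and R strands of 435 intervals (right), 1 point per pair. The left cloud is drawn out along the diagonal (r = 0.26) and the right one is not (r = 0.01). Probes on the left are the first by name, and those on the right the brightest of each strand. With the first probe by name, r across strands was 0.04. The 6 pairs on the left and the 3 on the right with a difference past 1 in size are drawn at the edge.

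Intervals of 1 suffix that lie at most 10 kb apart were joined into 2740 loci, of which 877 held more than 1 interval strand. The 3 with the most detected probes were chr14:65430484-65437902 R, chr13:28477490-28985604 R and chr17:3198868-3394643 F. On chromosome 14, 18 of 19 probes in 4 interval strands were detected, and the log2 fold changes of the 4 were -0.33 to 0.02. The chromosome 13 locus had the most interval strands of any, 12, with 17 of 34 probes detected and 9 strands tested, which lay between -0.06 and 0.32. Its highest, chr13:28490070-28492645 R, stood at 0.32 (SE 0.07, limma adjusted p = 0.24). On chromosome 17, 17 of 21 probes in 5 interval strands were detected, with log2 fold changes of -0.59 (SE 0.61) to 0.17 (SE 0.07), and none passed.

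Genotype was compared with limma over 24025 features, 1 probe per gene or interval strand, with Benjamini-Hochberg adjustment over all of them. Of the 4048 interval strands, 2539 (62.7%) had a probe detected on all 4 arrays of a genotype and were tested, and 1509 were not. The tested probe was detected on all 8 arrays for 2391, on all 4 arrays of Ts1Cje only for 109 and of wild type only for 39. These filters let in a dim probe through the genotype where it is brighter. At an adjusted p under 0.05, 1 interval strand was higher in Ts1Cje and 0 were lower, against 0.175% and 0.0208% of all features, or 0.196% in either direction. At an unadjusted p under 0.05 lay 204 members (8.03%), 132 higher and 72 lower, against 8.73% of all features (4.15% higher and 4.57% lower). The arrays of the genotypes did not overlap for 102 (4.02%), 60 higher and 42 lower, against 6.12% (2.42% and 3.7%). Restricted to probes detected on all 8 arrays, 2397 were tested, with 1 higher (against 0.22% of all features), 0 lower (0.0345%) and 185 (7.72%) at an unadjusted p under 0.05 (8.61%). Precision here is limited by the number of arrays.

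The members' median log2 fold change was 0.03, with 60.3% above 0, against -0.01 and 47.3% of all features. The gap of 0.04 between these medians depended on 1 library and on the processing. Without wild-type replicate 3, whose detected members had the lowest median level of the 8 arrays (-2.62, against -2.48 to -2.37) and whose 75th percentile was the brightest (639, against 540 to 610), the members' median was -0.01 with 48.0% above 0, that of all features -0.02, and the gap 0.01. Within slide row 1 the median was -0.01 with 47.9% above 0, and within row 2, which holds that array, it was 0.07 with 65.1%. With each array's median as centre the members stood at -0.02 with 45.0% above 0, and all features at -0.06 with 31.0%, so that the centre moved both and the gap stayed at 0.04. It was 0.02 with another background correction (normexp), with quantile normalization and with array weights. Without wild-type replicate 2 the gap was 0.06. Per chromosome the medians ran from -0.00 on chromosome 11 to 0.08 on chromosome 18. Intervals on chromosomes 12, 16 and X had medians of 0.07, 0.05 and 0.06.

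The interval strand that passed was chr6:67155508-67216941 R, an interval of 61434 bp. Its probe A_30_P01018807 had levels of 1.39, 1.20, 1.41 and 1.28 in wild type and 1.94, 1.91, 1.93 and 1.89 in Ts1Cje. Every Ts1Cje array lay above every wild-type array, and the Ts1Cje arrays lay closer together (1.92 ± 0.02 against 1.32 ± 0.10, SD, n = 4 each). The log2 fold change was 0.60 (SE 0.06, 95% interval 0.47 to 0.73), a 1.52-fold difference (limma adjusted p = 0.00808). Within slide rows 1 and 2 it was 0.63 and 0.57. Among the scalings and left-out arrays tried, the call was lost with each array's median as centre (0.55, adjusted p = 0.057) and without Ts1Cje replicate 4 (0.61, adjusted p = 0.053). It was also lost with the replicate number added to the limma model (adjusted p = 0.087), although no label ties a number to a litter.

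The other probes of that interval did not show the same difference. Of 8 probes on R, 1 more was detected on all 8 arrays, A_30_P01018444, with 1.11, 1.26, 0.92 and 1.33 in wild type and 1.17, 1.30, 1.31 and 1.31 in Ts1Cje. These groups overlapped, with wild-type replicate 3 lowest and wild-type replicate 4 highest, and the difference was 0.12 (SE 0.09). The mean over both probes was 0.36 higher in Ts1Cje (adjusted p = 0.028). On F, 1 of 9 probes was detected on all 8 arrays, and the genotypes overlapped there, at -3.11 ± 0.29 in wild type and -3.19 ± 0.27 in Ts1Cje (SD, n = 4 each), with a difference of -0.08 (SE 0.18).

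**Figure D4:**
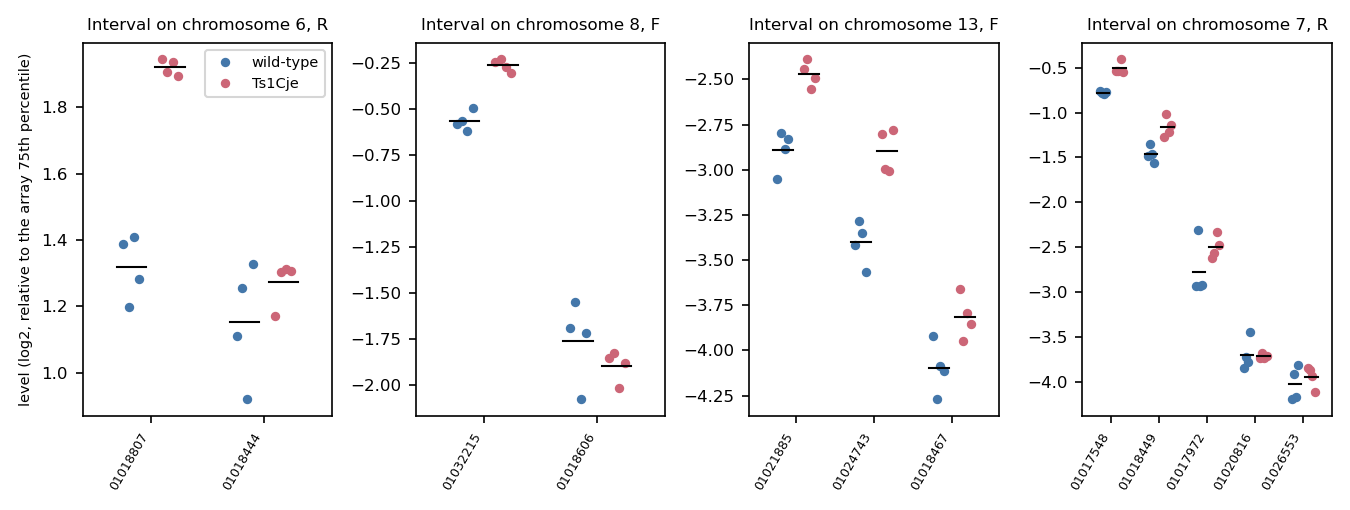
Levels (log2, relative to the array's 75th percentile) on each array for every probe detected on all 8 arrays of 4 interval strands, on chromosomes 6, 8, 13 and 7, with wild type in blue, Ts1Cje in red and the mean of each group as a bar. The tick labels are the last digits of the probe names, each panel has its own scale, and levels of different probes are not comparable. The left probe on chromosome 6 separates the genotypes (0.60) and its neighbour does not (0.12), whereas all 3 probes on chromosome 13 have a higher mean in Ts1Cje.

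Within 200 kb of that interval lie other members, among them the F strand of chr6:67016874-67030651. It had -5.23, -5.20, -4.64 and -4.79 in wild type and -4.49, -4.25, -4.00 and -4.21 in Ts1Cje. All 4 Ts1Cje arrays were above all wild-type arrays, but the probe was detected on 1 wild-type array against 4 of Ts1Cje, so that it entered the test through Ts1Cje. With 3 of its 4 wild-type values not well above background, the size of the difference is not measured. The 3 other tested members in that window stood at -0.03, 0.18 and 0.19 with SE of 0.11 to 0.21.

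The next members in order of p did not pass over all features. They were singled out because their genotypes did not overlap, so that their separation is a description. The F strand of chr8:57987539-57988398 had -0.58, -0.56, -0.62 and -0.49 in wild type and -0.24, -0.23, -0.27 and -0.30 in Ts1Cje (0.30, SE 0.05, limma adjusted p = 0.062). Its other detected probe differed by -0.14 (SE 0.11). The F strand of chr13:97700327-97700876, an interval of 550 bp, had -3.05, -2.80, -2.88 and -2.83 against -2.44, -2.39, -2.55 and -2.49 (0.42, SE 0.07, limma adjusted p = 0.080). Its 2 other probes were also detected on all 8 arrays and stood at 0.50 (SE 0.08) and 0.28 (SE 0.09). The former had -3.42, -3.28, -3.35 and -3.56 in wild type and -3.01 to -2.78 in Ts1Cje, again without overlap, and the latter overlapped. The mean over these 3 probes was 0.40 higher and passed (limma adjusted p = 0.022).

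A further pair of interval strands had 5 probes each, all detected on all 8 arrays. On chr7:144563845-144603732 R the tested probe had -0.76, -0.78, -0.79 and -0.77 in wild type and -0.54, -0.54, -0.41 and -0.55 in Ts1Cje (0.27, SE 0.05, limma adjusted p = 0.10). The other probes stood at 0.31, 0.28, -0.02 and 0.08. On the F strand 4 probes were detected on all 8 arrays, at -0.05 (SE 0.09), 0.27 (SE 0.15), 0.33 (SE 0.15) and 0.17 (SE 0.20), and the genotypes overlapped on all 4. On chr17:39960567-39992817 R the tested probe had 3.22, 3.43, 3.21 and 3.28 against 3.58, 3.55, 3.55 and 3.58 (0.28, SE 0.06, limma adjusted p = 0.19). All 5 of its probes had higher means in Ts1Cje, the others by 0.25, 0.13, 0.11 and 0.06. On the F strand the 4 detected probes stood at -0.05, -0.01, 0.04 and 0.06. This interval contains chr17:39982023-39983277, whose F strand is among the brightest and stood at -0.07 (SE 0.06).

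The remaining 3 of the 8 on the higher side rested on fewer probes. The only probe of chr2:50152329-50289487 F stood at 0.30 (SE 0.06, limma adjusted p = 0.12). It had -1.64, -1.47, -1.51 and -1.60 in wild type and -1.34, -1.23, -1.22 and -1.22 in Ts1Cje, without overlap. For chr19:6891117-6891594 R, 1 of 3 probes was detected (0.57, SE 0.13, adjusted p = 0.22), with -2.77 to -2.49 in wild type and -2.39 to -1.81 in Ts1Cje. For chr1:107866276-107887102 R the tested probe stood at 0.53 (SE 0.12, adjusted p = 0.23) and the other detected one at 0.56 (SE 0.18), against -0.04 (SE 0.08) on the F strand.

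Among the 8 members lower in Ts1Cje by the same rule, none passed. The smallest p belonged to chr19:44651106-44657612 F, with -3.80, -3.67, -3.56 and -3.60 in wild type and -4.00, -4.09, -4.06 and -3.97 in Ts1Cje (-0.37, SE 0.06, limma adjusted p = 0.090). Its other detected probe stood at 0.12 (SE 0.13). The F strand of chr1:85117750-85129200 had -2.63, -2.37, -2.47 and -2.25 against -3.03, -2.84, -2.87 and -2.79 (-0.45, SE 0.09, adjusted p = 0.16). All 3 of its detected probes had lower means in Ts1Cje, the others by -0.32 (SE 0.14) and -0.64 (SE 0.17), and no probe of its R strand was detected on any array. On chr13:78566508-78581785 F the tested probe stood at -0.31 (SE 0.06) and both others near 0, at 0.02 and 0.06. On chr2:60038543-60046318 R the tested probe stood at -0.23 (SE 0.05), while 3 other detected probes gave -0.09, 0.12 and 0.33.

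The other 4 were chr9:121846340-121848578 F (-0.44, SE 0.10), chr7:111526943-111545093 F (-0.17, SE 0.04), chr8:122807653-122823000 R (-0.22, SE 0.06) and chr1:88396166-88396660 R (-0.47, SE 0.12), with limma adjusted p of 0.22 to 0.34. The strands of chr7:111526943-111545093 went apart. On F the levels were 2.18, 2.25, 2.19 and 2.18 in wild type and 2.05, 1.98, 2.03 and 2.06 in Ts1Cje, and the other detected probes stood at -0.04 and -0.19. On R the only probe had -3.59, -3.55, -3.76 and -3.91 in wild type and -3.22, -3.36, -3.41 and -2.00 in Ts1Cje, a difference of 0.70 (SE 0.30, adjusted p = 0.57) to which Ts1Cje replicate 4 contributed most. The opposite signs were not tested against each other.

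Some probes were flagged as detected in 1 genotype alone. Of 14198 probes, 10 were detected on all 4 arrays of a genotype and on no array of the other, 8 in Ts1Cje and 2 in wild type, and 3 of the 10 were the tested probes of their strand. The share among other probes is not given here, so the count is a description only. This split is by flag and not by level. On chr15:61919018-61935580 F wild-type replicate 1, not detected, stood at -4.95, above the detected Ts1Cje replicate 1 at -5.11. A level not well above background is only an upper bound, so that folds are given against the dimmest detected signal of the array or the probe's own, whichever is higher. The largest was chr18:35977112-35977538 F, with -4.86, -3.83, -0.21 and -1.08 in Ts1Cje and -4.79 to -6.08 in wild type. Its groups overlapped, since Ts1Cje replicate 1 lay below wild-type replicate 1. By that bound its mean was at least 5.43-fold higher in Ts1Cje. The limma fit used the measured levels, those not well above background included, and does not test the bound (limma adjusted p = 0.50). The Ts1Cje arrays ranged widely, and replicates 3 and 4, both in slide row 2, carried the mean. Such a bound does not allow for the spread between arrays. The others were at least 1.21-fold to 1.70-fold apart. These probes were picked for their pattern, so that it is no test.

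The most variable members were probes with 1 or 2 arrays far from the rest. The 6 with the largest SD over the 8 arrays, all detected on every array, are described by that choice. Probe A_30_P01030592 of chr9:96664617-96683617 F had -0.20 on Ts1Cje replicate 1 and -4.23 to -3.68 on the others, while the other detected probe of that strand lay between -3.97 and -3.42 on all 8. Probe A_30_P01023028 of chr13:74516152-74528284 R had -0.71 on wild-type replicate 2 and -4.77 to -3.89 elsewhere. On 4 probes a pair of arrays was high: Ts1Cje replicates 3 and 4 on chr9:56910620-56919495 F, wild-type and Ts1Cje replicates 3 on chr13:74642700-74701900 R and on chr4:59306575-59317850 R, and wild-type replicates 3 and 4 on chr3:40439525-40509975 F. All these pairs lie in slide row 2. On the 3 of these 6 interval strands that had other probes detected on all 8 arrays, those probes were not at least 2-fold up on the same arrays.

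**Figure D5:**
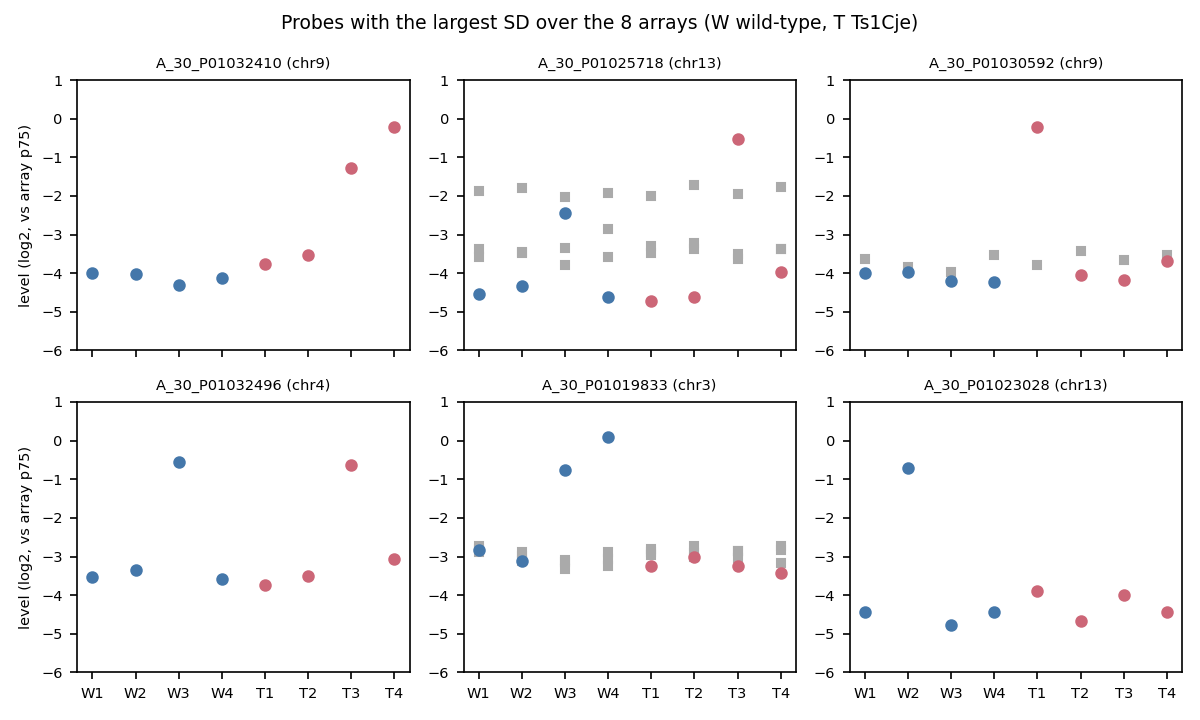
Levels (log2, relative to the array's 75th percentile) on each array for the 6 interval probes with the largest SD over the 8 arrays, with wild type (W) in blue and Ts1Cje (T) in red, and the other probes of the same interval strand detected on all 8 arrays as grey squares. In each panel 1 or 2 arrays stand apart from the rest, and the grey squares, present in 3 panels, do not follow them.

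Such departures were counted over all members. Of the 5105 members detected on all 8 arrays, 195 (3.82%) had exactly 1 array at least 2-fold above the median of the other 7, against 1.76% of 19260 mRNA probes, which are brighter. They were spread over the arrays, from 15 on wild-type replicate 3 to 33 on Ts1Cje replicate 2. In the other direction 43 members had 1 array at least 2-fold below, of which 32 were on wild-type replicate 3. Another 15 members had exactly 2 arrays at least 2-fold above the median of the other 6, and in 13 of the 15 both arrays lay in the same slide row, 11 in row 2. Of the 28 pairs of arrays, 12 share a row. For the mRNA probes 25 of 34 such pairs shared a row. The part that position on the slide has in these values was not tested.

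Long non-coding RNA genes with a RefSeq name, listed with earlier results of these data known, gave a similar picture. Of 54 genes, 29 were found on the array and 25 were tested, with 0 called higher, 0 called lower and 1 at an unadjusted p under 0.05 (limma). Their median log2 fold change was 0.05, with 15 above 0. The exception was Snhg6, a host gene of small nucleolar RNAs, at -0.17 (SE 0.05, adjusted p = 0.37). The highest levels were those of Norad (5.79), Peg13 (5.74), Meg3 (5.39), Pantr1 (5.03), Snhg6 (3.69) and Mirg (2.79), of which Meg3, an imprinted gene, and Mirg lie on chromosome 12. Meg3 stood at 0.19 (SE 0.13).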

How the data were processed

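Labelled RNA (Cy3) of 8 hippocampi, 4 per genotype, was hybridised to 1 array each. The deposited values are intensities per spot, quantified with Agilent Feature Extraction 10.10.1.1 per the file headers: a processed signal that the scanner software had corrected for background, the median spot and background signals, and flags for outliers and for signal well above background. The deposited intensities were not normalized between arrays. Control spots and outlier-flagged spots were left out here, log2 processed signals of a probe's spots were averaged, and levels were taken relative to the array's 75th percentile over non-control probes.

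A probe was kept if a whole genotype (4 arrays) detected it, and the brightest kept probe stood for its RefSeq gene or interval strand. R 4.3.3 with limma 3.58.1 fitted all 24025 features (linear model with moderated variances, without a block), and p-values were Benjamini-Hochberg adjusted over all of them. The members were defined by name alone, but this rule, the gene lists and the alternatives were set with earlier results of these data known.

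Named in the text are members past the threshold and the 8 smallest p per direction among members detected on all 8 arrays without overlap. Also named are the 8 brightest, the 4 brightest intervals with both strands detected and the 4 whose other strand was detected on no array. The 6 most variable probes and the 3 loci with most detected probes complete the rule. Members outside this rule, such as the neighbour on chromosome 6, the probes detected in 1 genotype only and single members of loci, were chosen after their values were seen. Normexp ran on the median signals, since the mean signal was not used here. Probe sequences and an mm9 genome were not used here. Plots were drawn with matplotlib 3.10.9.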

Additional observations from a re-analysis of the deposited data

Results flagged for a closer look

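Within the groups of 4 arrays, 104 sets of values were examined for an array far from the other 3 (the gap to the nearest array divided by the range, above Dixon's 95% critical value), a rule by which chance picks about 1 group in 20. It picked 14, of which 4 belong to the 12 groups of the probes chosen for their large SD and 10 to the other 92.

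Among probes singled out for a genotype difference, the ratio was 0.91 for Ts1Cje replicate 3 of chr7:144563845-144603732 R, 0.888 for Ts1Cje replicate 1 of chr2:50152329-50289487 F and 0.921 for Ts1Cje replicate 2 of chr9:121846340-121848578 F. In all 3 the group's values lay within 0.15 of each other. The far array stood apart from every wild-type array, which follows from the choice of probes whose genotypes did not overlap.

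On opposite strands it was 0.848 for Ts1Cje replicate 2 of chr7:144563845-144603732 F, 0.958 for wild-type replicate 3 of chr17:39960567-39992817 F (4.42, against 4.78 to 4.79) and 0.861 for Ts1Cje replicate 4 of chr7:111526943-111545093 R (-2.00, against -3.41 to -3.22).

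Among bright probes it was 0.845 for Ts1Cje replicate 3 of chr6:116092274-116144199 F and 0.835 for Ts1Cje replicate 2 of chr2:156213798-156216885 R. Wild-type replicate 2 was low on chr3:127170996-127201096 F (0.851) and on chr17:22815742-22828592 R (0.881).

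Of the probes chosen for their SD, wild-type replicate 3 was high on chr13:74642700-74701900 R (0.863) and chr4:59306575-59317850 R (0.928), Ts1Cje replicate 1 on chr9:96664617-96683617 F (0.875) and wild-type replicate 2 on chr13:74516152-74528284 R (0.918).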

How the results depend on the processing

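The count of members called higher, 1 in the main setting, was 2 with quantile normalization, the mean over kept probes, array weights or the slide row as a block, 0 with the array median as centre, and 3 at an adjusted p under 0.10. The second with the row as a block was the chromosome 6 neighbour detected on 1 wild-type array. Called lower were 0, or 1 with every kept probe as its own feature and 1 at an adjusted p under 0.10. The former was a probe of chr17:34003823-34011015 F detected on 4 wild-type arrays and 0 of Ts1Cje, which entered through the genotype where it is brighter. With every kept probe as its own feature, 5545 member probes were tested, of which 451 had an unadjusted p under 0.05 and 222 did not overlap. Over all features, that setting called 61 of 32596 in either direction. The main setting called 47, quantile normalization 60, the mean over kept probes 58 and array weights 84. The slide row as a block called 45, and the array median as centre 25. With 1 array left out at a time, 0 to 1 members were called higher (0 without Ts1Cje replicate 4). Of the members, 134 (without Ts1Cje replicate 2) to 283 (without Ts1Cje replicate 1) had an unadjusted p under 0.05. Members whose genotypes did not overlap, counted separately and regardless of p, numbered 133 to 259, fewer arrays making overlap rarer. Both counts can hold the same members. Calls over all features then ran from 13 (without Ts1Cje replicate 4) to 44 (without wild-type replicate 3). The shares of all features with such p or without overlap are not given here for these alternatives. The called probe on chromosome 6 passed in 16 of 19 alternatives and kept its sign in all 19 (0.36 to 0.63). Of the other 15 members singled out for their difference, 3 passed in 1 alternative each, and only chr2:60038543-60046318 R reversed, at 0.0346 with the mean over its kept probes. Their differences shrank by over 1.5 times in 8 of 15 with normexp and in 6 of 15, the reversed one included, with the mean over kept probes. With normexp chr1:107866276-107887102 R fell from 0.53 to 0.24 and chr9:121846340-121848578 F went from -0.44 to -0.19. With the mean over probes chr8:57987539-57988398 F fell from 0.30 to 0.08 and chr19:44651106-44657612 F went from -0.37 to -0.13.

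Both genotypes carry replicate numbers 1 to 4. Nothing in the labels ties a number to a litter, and the deviations of equal numbers correlated at 0.237, 0.194, 0.106 and 0.05. For wild-type replicates 1, 2 and 3 the Ts1Cje replicate with the highest correlation had the same number. For wild-type replicate 4 it was Ts1Cje replicate 3. With the replicate block 0 members were called higher, and calls over all features went from 47 to 1. The chromosome 6 probe then had an adjusted p of 0.087 (limma).

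Detection on all 8 arrays, 5105 probes and 435 intervals with both strands, became 7687 and 684 with the software's weaker flag (positive and significant) and 7919 and 704 with at least 1 of 8 arrays. The share of intervals whose strands had the same sign stayed between 51.5% and 54.0% in the 4 alternatives. The within-row values and the pairs of probes by name were chosen after seeing the data.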
